A study of Homo sapiens with 10 samples.

Results

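CEACAM1, CEACAM5, CEACAM6 and CEACAM7 are members of the carcinoembryonic antigen family of cell adhesion molecules. They were followed here through every probe set whose platform annotation gives exactly 1 gene symbol and that symbol is one of the 4, which gave 12 of 54675 probe sets: 5 for CEACAM1, 2 for CEACAM5, 2 for CEACAM6 and 3 for CEACAM7. They stand for 4 of 19775 genes on the array. The genes were chosen by their intensities on these same arrays, in the 3 groups described next, with earlier results known. Their levels and differences are therefore given as a description, with standard errors and no p-value.

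The study compared the side population with other cells of gastric cancer lines. A side population is made up of the cells that pump out the DNA dye Hoechst and so appear dim in a flow sorter. There were 4 arrays of side population cells and 4 of non-side population cells, each lettered a to d, and 2 arrays of cells that had not been sorted, lettered a and b. The lines, AGS and MKN 45, are established from gastric carcinomas and were grown in RPMI medium with fetal bovine serum and harvested with trypsin; the labels give no other treatment and no genetic change. Every array has an origin label with both lines. The source label names AGS on 8 arrays and no line on side population replicates a and b, so how the lines were divided over the arrays is not known. Nothing in the labels says whether replicates were separate cultures, and p-values below measure the spread between these arrays, which may be technical.

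CEACAM proteins carry immunoglobulin-like domains and bind each other between neighbouring cells. CEACAM5, the carcinoembryonic antigen measured in serum as a tumour marker, CEACAM6 and CEACAM7 are held in the membrane by a glycosylphosphatidylinositol (GPI) anchor, while CEACAM1 spans the membrane and, in its long form, signals through inhibitory tyrosine motifs. CEACAM1, CEACAM5 and CEACAM6 are also receptors for the HopQ adhesin of Helicobacter pylori in the stomach.

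Values are deposited intensities on a linear scale that had been brought to one trimmed mean, and differences are of mean log2(intensity + 6.1). Array medians lay between 58.7 and 85.4. The ratio of 3' to 5' signal of the actin control, which rises with RNA degradation or incomplete copying, was 3.341 in side population replicate a and 0.9874 to 1.282 on the other 9 arrays. The 5' probe set of the 18S ribosomal RNA control read 274.6 and 828.3 on the unsorted arrays, 851.2 in side population replicate d and 563 in non-side population replicate c, against 22182.4 to 33704 on the other 6 sorted arrays. The epithelial markers KRT8, KRT18, KRT19, EPCAM and CDH1 were above the array median on all 10 arrays, with a summed intensity of 87971.6 to 110889.3 in side population, 73812.9 to 130671.2 in non-side population and 106710.7 to 113812.6 in unsorted cells. The sum of 9 blood cell markers was 710.8 to 774.7, 554.5 to 1076.9 and 400.5 to 469.2 in the same order. The 1 of the 9 bright enough to be tested was CD79A. It read 325.9 to 411.4 in side population, 242.9 to 740.4 in non-side population and 173.6 and 202.4 in unsorted cells. PTPRC, the pan-leukocyte antigen, read at most 34.4. For 9 fibroblast and endothelial markers the sums were 1306.4 to 2274.9, 1253 to 1784.3 and 1453.2 to 2213.5, and 1 was tested. Of 5 genes of the MET amplicon, which MKN 45 carries in extra copies, 4 were measured, with sums of 10561.2 to 11544.3, 10525.3 to 13465.2 and 12525.6 to 12630.9.

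By its probe set of higher mean, 201884_at, CEACAM5 was several-fold higher in both sorted populations than in unsorted cells. It read 3072.3, 1603.1, 2080.5 and 2340 in side population replicates a to d. It read 2912.2, 1189.6, 3374 and 3180.1 in non-side population replicates a to d. In unsorted cells it read 339.6 and 477. All 8 sorted arrays therefore lay above both unsorted arrays, and replicate b was the lowest of its group in both sorted populations. The means were 2274 ± 614 in side population (SD, n = 4), 2664 ± 1001 in non-side population (SD, n = 4) and 408 ± 97.2 in unsorted cells (SD, n = 2). Side population exceeded unsorted cells by 2.44 ± 0.39 on the log2 scale, a 5.43-fold difference, and non-side population did so by 2.60 ± 0.39, a 6.06-fold difference (SE of the fit). Both comparisons share the 2 unsorted arrays. Between the sorted populations the difference was -0.16 ± 0.32, smaller than its error, with the side population array higher in 2 of the 4 replicate letters. MET, the gene that gives the MKN 45 amplicon its name, read 2232.3 to 3875.2 in side population and 1334.3 to 3346.3 in non-side population against 1269.5 and 1218.5 in unsorted cells; it did not pass the test (1.28 ± 0.34, adjusted p = 0.0652, and 0.90 ± 0.34, adjusted p = 0.165, limma). CAPZA2, the other amplicon gene tested, went the other way, at -0.52 ± 0.22 and -0.30 ± 0.22 (adjusted p = 0.238 and 0.477, limma). The part of the cell lines in the CEACAM5 values was not tested. The 18S control was low on both unsorted arrays and on 2 sorted ones. On those 2, side population replicate d and non-side population replicate c, CEACAM5 read 2340 and 3374, above both unsorted arrays. The part of the 18S difference in the CEACAM5 values was not tested.

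The size of the CEACAM5 difference can be read against all 9888 genes at or above the filter, which takes the brighter of the measured genes. Among the other 9887, 24 had a difference at least as large and in the same direction between side population and unsorted cells, and 20 between non-side population and unsorted cells. All sorted arrays lay above both unsorted arrays for 11% of genes, and all below for 9.53%, so the separation alone is common here. Counted by population, all side population arrays were above both unsorted ones for 21.3% of genes and below for 15.4%, and all non-side population arrays were above for 15.6% and below for 16.3%. Of the 12 CEACAM probe sets, 1 was wholly above (CEACAM5 201884_at) and 1 wholly below (CEACAM6 211657_at) in side population cells, and 2 and 1 in non-side population cells. Between side and non-side population the groups overlapped for all 12, while for 1.01% of genes side population was wholly higher and for 0.576% wholly lower. With shares this small, overlap in all 12 says little about the members. The shares in this paragraph count 1 probe set per gene at or above the filter, while the 12 take in dimmer ones. With fewer cells of a kind or less RNA per cell, a bulk array gives the same value, and these cannot be told apart.

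The other CEACAM5 probe set, 217291_at, did not follow. It read 158.8, 120.1, 35 and 128.5 in side population replicates a to d. It read 103.5, 169.5, 89.4 and 69.3 in non-side population replicates a to d, and 228.6 and 113.6 in unsorted cells. The groups overlap, and the highest array is an unsorted one. Its differences were -0.69 ± 0.57 between side population and unsorted cells, -0.63 ± 0.57 between non-side population and unsorted cells and -0.067 ± 0.46 between the sorted populations. The sign against unsorted cells was thus opposite to that of 201884_at, by differences close to their errors. Only 2 of 10 arrays lay on the same side of the mean in both probe sets. Of the 10 values of 217291_at, 8 were above the array median, while all 10 were for 201884_at. The mean log2 value of 217291_at, 6.86, lay under the 7.276 of the filter applied to genes. The platform annotation ties the 2 probe sets to different sequence records; which transcript forms each one binds was not examined.

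**Figure D1:**
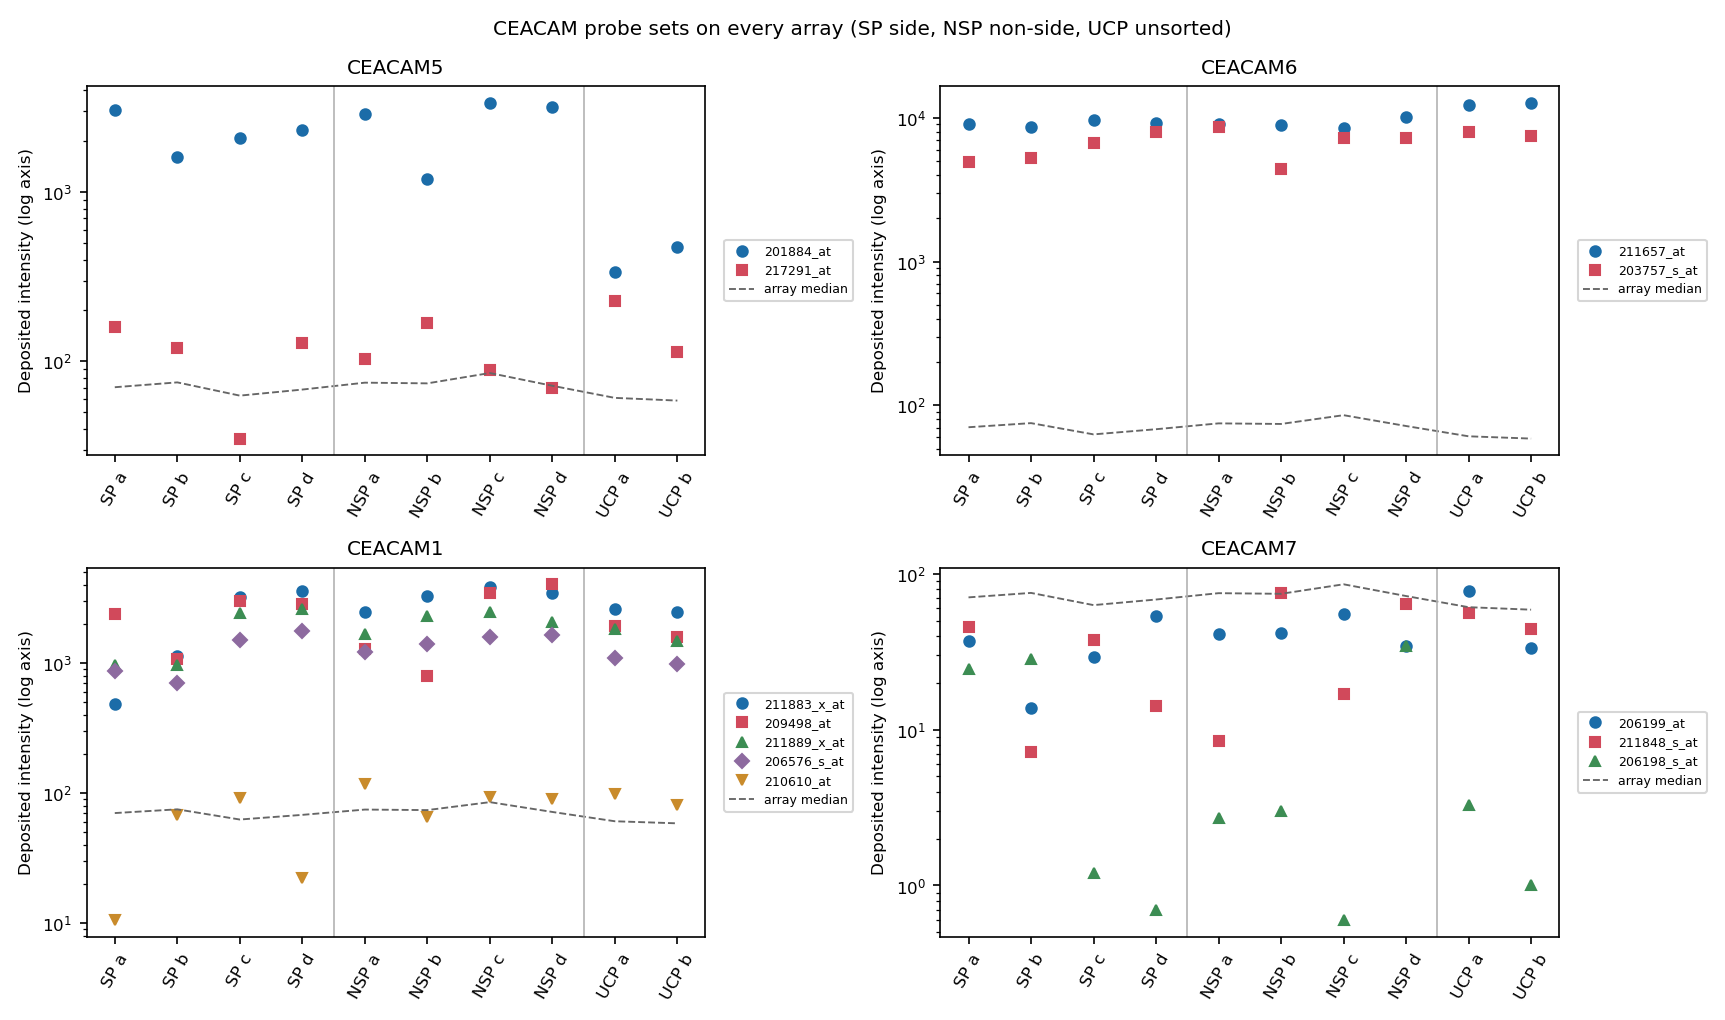
Deposited intensity (log axis) of the 12 CEACAM probe sets on the 4 side population (SP), 4 non-side population (NSP) and 2 unsorted (UCP) arrays, with the median of all probe sets as a dashed line. CEACAM5 201884_at lies between 1189.6 and 3374 on the sorted arrays and at 339.6 and 477 on the unsorted ones, while CEACAM7 stays near or under the median.

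CEACAM6, which lies next to CEACAM5 on the chromosome, was slightly lower in sorted than in unsorted cells. Its probe set of higher mean, 211657_at, read 9056.1, 8642.4, 9662.1 and 9120.6 in side population replicates a to d. It read 9013.8, 8873.7, 8443.3 and 10115.9 in non-side population replicates a to d, and 12208.3 and 12700.7 in unsorted cells. Every sorted array lay under both unsorted ones. The means were 9120 ± 419 (SD, n = 4), 9112 ± 712 (SD, n = 4) and 12454 ± 348 (SD, n = 2). The differences from unsorted cells were -0.45 ± 0.21 for side population and -0.45 ± 0.21 for non-side population cells, or 1.37-fold in each case. Between the sorted populations the difference was 0.003 ± 0.17. On the 2 sorted arrays with the low 18S control CEACAM6 read 9120.6 and 8443.3, below both unsorted arrays. The part of the 18S difference in the CEACAM6 values was not tested.

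The second CEACAM6 probe set, 203757_s_at, read 4901.9, 5206.7, 6679.7 and 7898.3 in side population replicates a to d. It read 8571, 4417, 7231.7 and 7239.6 in non-side population replicates a to d, and 7994.2 and 7501.6 in unsorted cells. Here the groups overlap, the unsorted values lying inside the range of the sorted ones. The differences from unsorted cells had the same sign as with 211657_at, at -0.35 ± 0.29 and -0.21 ± 0.29. Both probe sets read far above the array median throughout.

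The 4 genes lie in 1 stretch of chromosome 19, and their start regions resemble each other. The windows from 250 bases before to 50 bases after the annotated start, from RefSeq on GRCh38.p14, matched for all 4 genes. Identity over a global alignment was 81.4% between CEACAM5 and CEACAM7, 80.5% between CEACAM6 and CEACAM7, 74.7% between CEACAM5 and CEACAM6, and 65.6% to 71.2% between CEACAM1 and the others. They are shown because CEACAM5 and CEACAM6 are neighbours with like start regions and unlike differences between sorted and unsorted cells. Capitals mark exact matches on either strand to the E-box CACGTG, a site of USF factors, and to the GC box GGGCGG or its reverse complement CCGCCC, a site of SP1. The windows are at chr19:41708376-41708675 (plus strand, CEACAM5), chr19:41755280-41755579 (plus strand, CEACAM6), chr19:41688221-41688520 (minus strand, CEACAM7) and chr19:42528432-42528731 (minus strand, CEACAM1), printed 5′ to 3′ along the gene:
CEACAM5: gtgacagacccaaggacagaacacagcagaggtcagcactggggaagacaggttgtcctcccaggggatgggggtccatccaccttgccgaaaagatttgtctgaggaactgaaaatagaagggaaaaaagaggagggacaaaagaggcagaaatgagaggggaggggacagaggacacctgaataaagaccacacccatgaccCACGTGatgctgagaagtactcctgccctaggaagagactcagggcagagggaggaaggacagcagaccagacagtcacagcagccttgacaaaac
CEACAM6: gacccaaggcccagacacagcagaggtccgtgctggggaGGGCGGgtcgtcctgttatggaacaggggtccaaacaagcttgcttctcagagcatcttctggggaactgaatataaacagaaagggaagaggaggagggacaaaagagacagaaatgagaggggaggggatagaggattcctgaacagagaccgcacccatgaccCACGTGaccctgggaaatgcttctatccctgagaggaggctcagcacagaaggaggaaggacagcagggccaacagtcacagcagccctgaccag
CEACAM7: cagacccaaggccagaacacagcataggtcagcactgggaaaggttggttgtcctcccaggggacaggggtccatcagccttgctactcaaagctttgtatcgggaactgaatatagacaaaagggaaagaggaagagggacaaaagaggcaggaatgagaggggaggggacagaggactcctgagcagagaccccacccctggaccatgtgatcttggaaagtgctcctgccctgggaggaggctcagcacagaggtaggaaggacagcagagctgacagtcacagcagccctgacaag
CEACAM1: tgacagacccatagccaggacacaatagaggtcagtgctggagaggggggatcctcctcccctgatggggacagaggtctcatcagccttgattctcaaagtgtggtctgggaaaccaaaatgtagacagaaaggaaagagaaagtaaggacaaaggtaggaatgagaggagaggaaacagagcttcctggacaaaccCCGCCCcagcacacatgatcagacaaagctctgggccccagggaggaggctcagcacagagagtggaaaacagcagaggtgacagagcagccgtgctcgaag

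The E-box stood in the windows of CEACAM5 and CEACAM6, beginning 46 and 45 bases before the start, and the letters were not found in those of CEACAM7 and CEACAM1. It was present in 7.26% of 35116 windows of the same length. A GC box stood in the windows of CEACAM6 and CEACAM1, and in 45% of all windows. CEACAM5 and CEACAM6, whose windows are 74.7% identical, share the E-box letters at nearly the same place. Any part of the E-box in their values was not tested. A match describes letters and is no measured binding site.

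CEACAM7, known from the apical surface of colonic epithelium, was near or below the median of all probe sets. Its 3 probe sets ranged from 13.8 to 77 (206199_at), from 7.2 to 75 (211848_s_at) and from 0.6 to 34.4 (206198_s_at) over the 10 arrays, and 2 of the 30 values were above the median of their array. The gene did not pass the filter. The differences between side and non-side population were -0.40 ± 0.44, -0.42 ± 0.61 and 0.31 ± 0.65 for the 3 probe sets, each smaller than its error and not alike in sign. At such intensities the values have no dependable order.

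CEACAM1 read lower in side population replicates a and b on most of its probe sets. The probe set of highest mean, 211883_x_at, read 487.1, 1135.8, 3198.1 and 3593.5 in side population replicates a to d. It read 2463.8, 3297.6, 3823.3 and 3436.7 in non-side population replicates a to d, and 2601.6 and 2451.2 in unsorted cells. Side population replicates a and b were the lowest of all 10 arrays, while replicates c and d lay among the non-side population values. The difference between side and non-side population was -1.01 ± 0.49, with means of 2104 ± 1524 and 3255 ± 573 (SD, n = 4 each). Among the other 9887 genes 16 were as low or lower in this comparison. The difference rests on those arrays: with only arrays labelled AGS, which leaves out side population replicates a and b, it was 0.077 ± 0.23. Without side population replicate a it was -0.45, and without replicate b -0.85.

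Side population replicates a and b were also the lowest of all arrays on 211889_x_at, at 958.8 and 959.7 against 1479.6 to 2600.8 elsewhere. The same held for 206576_s_at, at 865.1 and 702.3 against 992.3 to 1750.1. Their differences between side and non-side population were -0.43 ± 0.32 and -0.37 ± 0.27. Names ending in _x_at or _s_at mark probe sets that can bind several transcripts, so signal from other members of so similar a family cannot be separated out. The probe set 206576_s_at was also the one of CEACAM1 whose non-side population values all lay above both unsorted ones, 1098.6 and 992.3.

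The probe set 209498_at gave another picture. It read 2379.8, 1078.6, 2983.4 and 2859.6 in side population replicates a to d. It read 1284.1, 790, 3442 and 4028.9 in non-side population replicates a to d, and 1929.1 and 1572.3 in unsorted cells. Its lowest arrays were the b replicates of both sorted populations and non-side population replicate a. The difference between side and non-side population was 0.16 ± 0.47, and for letters a and b the side population array was higher, by 0.89 and 0.45, where 211883_x_at was lower by -2.32 and -1.53. The weak probe set 210610_at read 10.6, 68.3, 91.4 and 22.5 in side population replicates a to d against 65.1 to 118.2 in the other arrays. Against unsorted cells CEACAM1 showed no common direction: side population cells were at -0.66 ± 0.60, 0.31 ± 0.57, -0.083 ± 0.40, 0.11 ± 0.34 and -1.14 ± 0.64 over its probe sets in the order 211883_x_at, 209498_at, 211889_x_at, 206576_s_at and 210610_at. With the replicate letter as a block, 211883_x_at was at -1.30 in side population and at -0.28 in non-side population cells against unsorted cells. The latter turned from 0.35 ± 0.60. Such a block joins the unsorted arrays to the sorted arrays of the same letter, which no label ties together. Side population replicate a has the raised 3' to 5' ratio given above, and replicates a and b are the arrays whose source label names no line; the part of either in the CEACAM1 values was not tested.

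**Figure D2:**
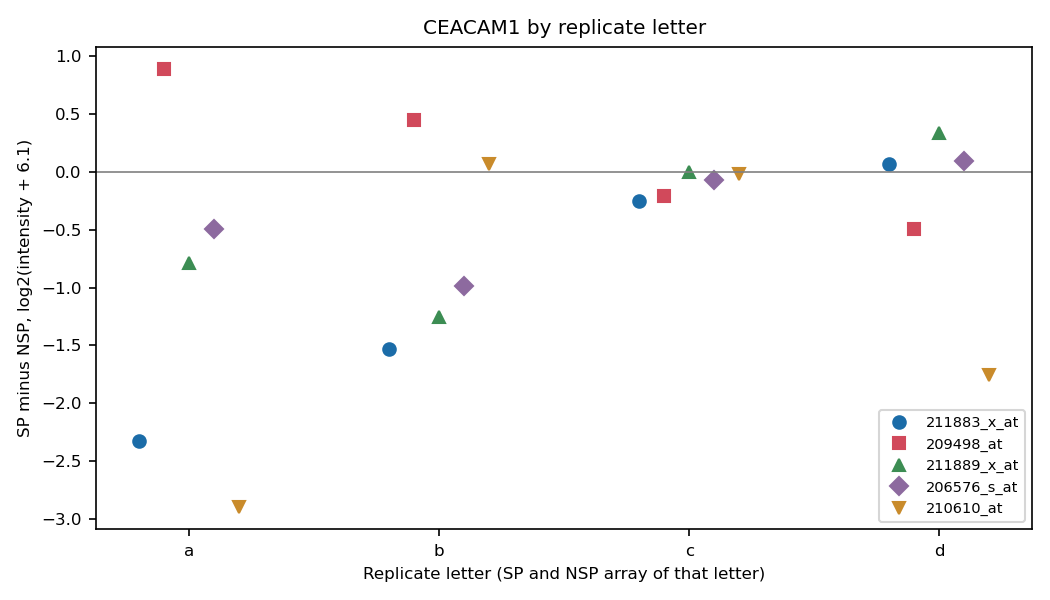
Difference in log2(intensity + 6.1) between the side population (SP) and non-side population (NSP) array of each replicate letter for the 5 CEACAM1 probe sets. In letters a and b, 211883_x_at is at -2.32 and -1.53 and 209498_at at 0.89 and 0.45, while in letter c all 5 lie between -0.26 and -0.005.

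**Figure D3:**
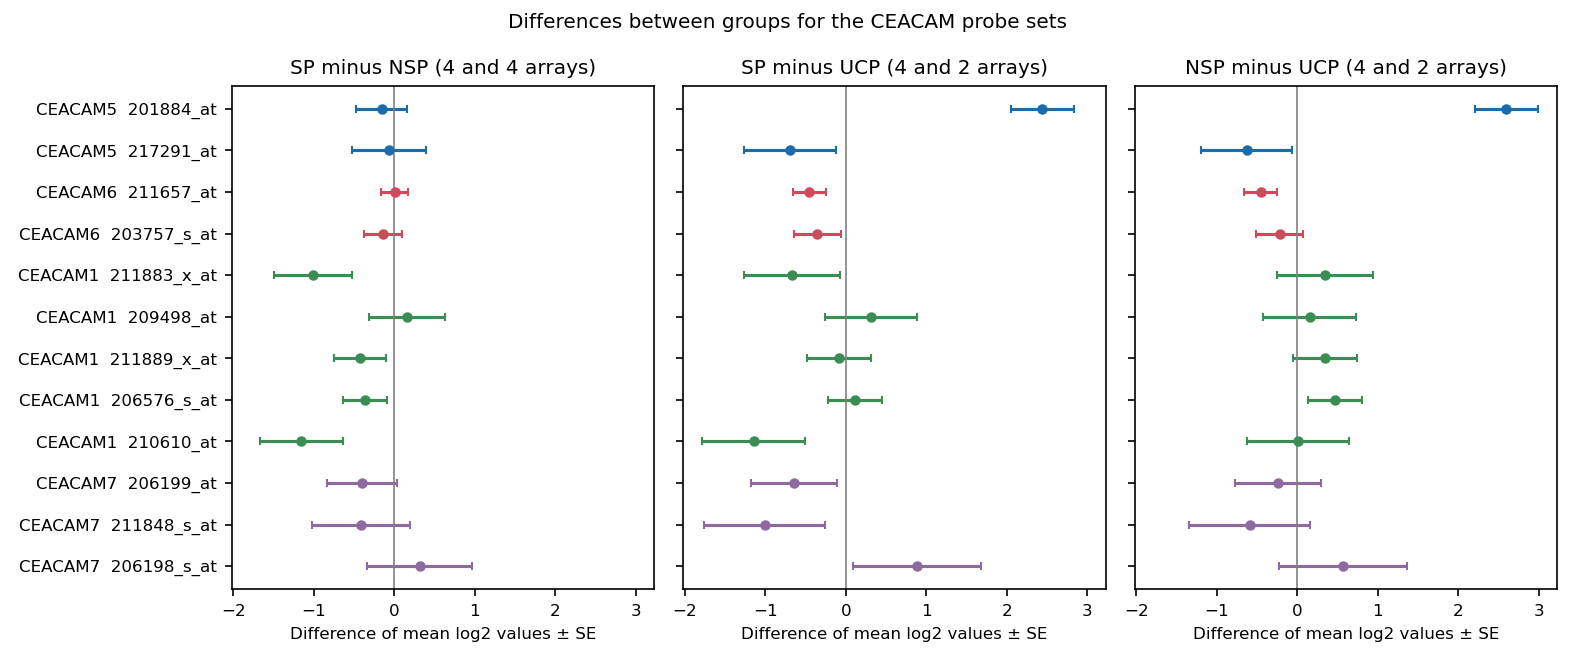
Differences of mean log2 values for the 12 CEACAM probe sets in the 3 comparisons, with bars of 1 standard error of the fit and one common x axis. CEACAM5 201884_at stands at 2.44 and 2.60 against unsorted cells, and its other probe set at -0.69 and -0.63.

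Nearby genes did not pass the test in any comparison. Between and beside the 4 members, 56 other genes stand in RefSeq order, 28 had a probe set, and 11 were bright enough to be tested. Limma called 0 of the 11 in each comparison; at an unadjusted p under 0.05 there were 0 between the sorted populations, 4 between side population and unsorted cells and 2 between non-side population and unsorted cells. Over all genes tested that threshold was met by 430 (4.35%), 1691 (17.1%) and 1924 (19.5%) in the same order. The median difference of the 11 between side population and unsorted cells was 0.19, beside 0.042 for all genes tested. DEDD2, a death effector domain gene, had the smallest p-values, at 1.03 ± 0.30 in side population (adjusted p = 0.0893) and 0.97 ± 0.30 in non-side population cells (adjusted p = 0.0899) by limma. CD79A, a B-cell receptor subunit, was at 0.91 ± 0.36 and 1.00 ± 0.36 (adjusted p = 0.208 and 0.147, limma). ERF, an ETS repressor, was at -0.95 ± 0.40 and -0.26 ± 0.40 (adjusted p = 0.232 and 0.76, limma). Those of RPS19, ARHGEF1, RABAC1, GRIK5, ZNF574, GSK3A, CIC and PAFAH1B3 lay between -0.72 and 0.67. Under the filter, the noncoding LOC105372404, 2 measured genes before CEACAM7 and picked after its values were seen, read 13.4 to 55.6 on the sorted arrays and 3.7 and 1.5 on the unsorted ones, all below the array medians.

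**Figure D4:**
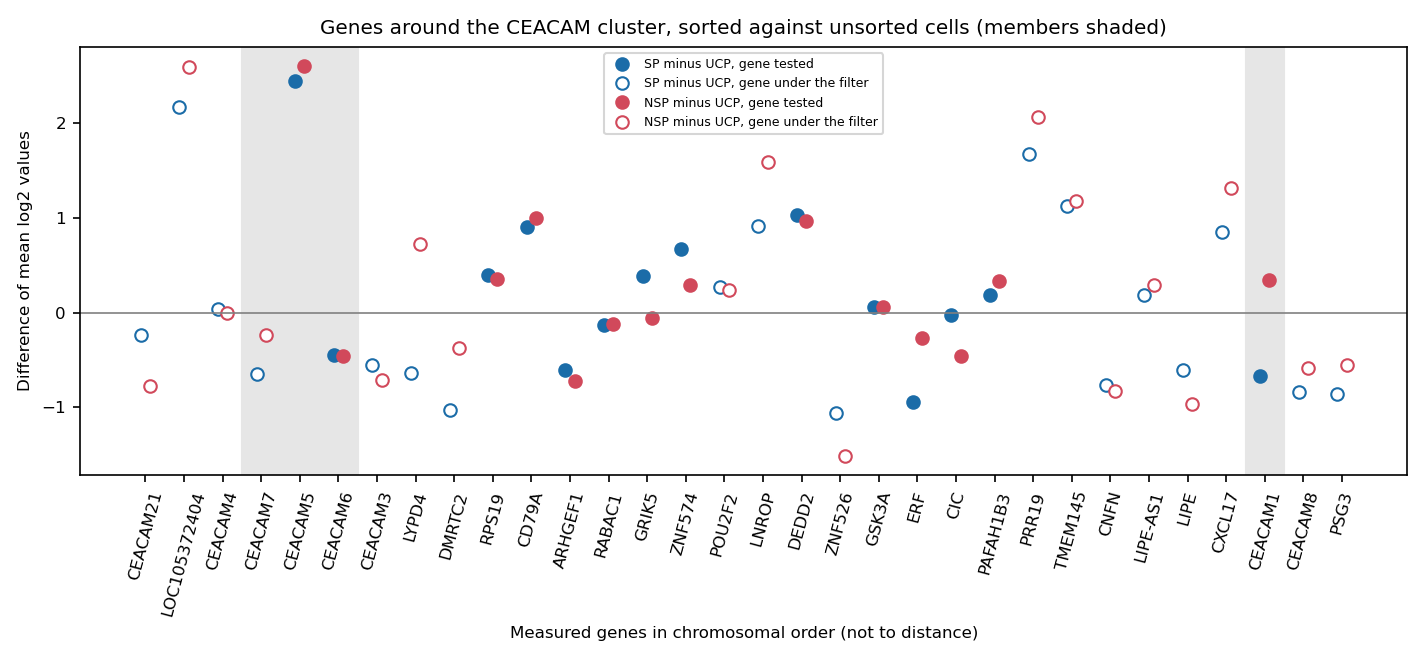
Differences of mean log2 values between each sorted population (SP, NSP) and unsorted cells (UCP) for the measured genes in chromosomal order around the CEACAM genes, whose columns are shaded; open circles are genes under the filter. CEACAM5 stands at 2.44 and 2.60 beside CEACAM6 at -0.45 and -0.45.

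The genes whose profile over the 10 arrays was most like that of CEACAM5 201884_at were found by the smallest root mean square difference between centred log2 values among 9887 genes. They were TXNIP, an inhibitor of thioredoxin (0.32), PBLD (0.40), DGKH, a diacylglycerol kinase (0.41), DDIT4, a stress-induced inhibitor of mTORC1 (0.41), and the cytokine gene IL11 (0.44), against a root mean square of 1.11 for CEACAM5 about its own mean. TXNIP read 8498.8 to 10847 in side population, 4502 to 11945.2 in non-side population and 991.8 and 1430.7 in unsorted cells. In DDIT4, TXNIP and PBLD, as in CEACAM5, the b replicates were the lowest of both sorted populations. In DDIT4 they read 4212.5 and 5033.1 against 10064.8 to 13810.5 on the other sorted arrays. In DGKH and IL11 the lowest side population arrays were replicates d (396.8) and c (190.4). The genes were picked for a like profile over these arrays, so a shared low replicate is no separate evidence. For CEACAM6 211657_at, whose own root mean square was 0.19, the nearest profiles were those of PARVA, an actin-binding adaptor of integrins (0.092), MOSPD1 (0.097), PXMP4, a peroxisomal membrane protein (0.11), LONP2, a peroxisomal protease (0.11), and TMEM41B, a membrane lipid scramblase (0.11). The likeness is a description over arrays that share their groups and scaling.

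**Figure D5:**
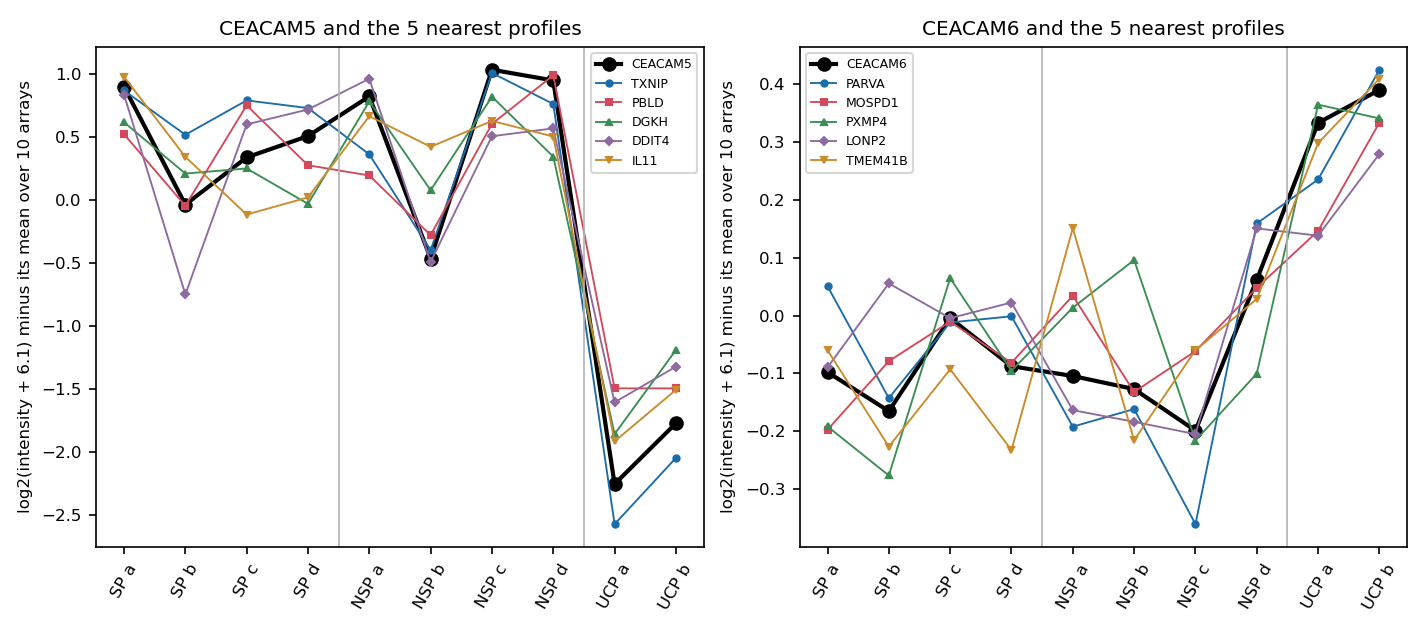
Centred log2(intensity + 6.1) of CEACAM5 201884_at and CEACAM6 211657_at (black) and of the 5 genes nearest to each over the 10 arrays; lines join the points of 1 gene and imply no order of arrays. CEACAM5 and its neighbours drop in the unsorted arrays, and the CEACAM6 group is higher there.

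Genes related by family, signalling, GPI anchor, transcription or place on the epithelial surface were taken from 5 lists of 113 genes. Of these, 101 were measured and 82 tested. Of the 82, limma called 0 between side and non-side population, where 0% of all 9888 genes were called and 2 of the 82 had an unadjusted p under 0.05. It called 1 between side population and unsorted cells, where 2.35% of all genes were called (1.81% higher, 0.536% lower), and 2 between non-side population and unsorted cells, where 3.52% were (2.37% higher, 1.15% lower). These shares, 1.22% and 2.44% of the lists, rest on 1 and 2 genes, too few to set apart from the background. An unadjusted p under 0.05 was reached by 11 and 12 of the 82 against unsorted cells. Over all genes tested it was reached by 4.35% between the sorted populations, and by 17.1% and 19.5% against unsorted cells. The medians over the 82 were 0.082, 0.021 and -0.075, beside 0.045, 0.042 and -0.01 for all genes tested.

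Among partners of CEACAM1 in signalling, 11 of 16 were tested. CTNNB1, the beta-catenin that binds the CEACAM1 tail and cadherins, was called higher in sorted cells: its intensity averaged 10585 in side population, 9418 in non-side population and 4209 in unsorted cells. The differences were 1.31 ± 0.27 (adjusted p = 0.0236, limma) and 1.18 ± 0.27 (adjusted p = 0.0284, limma), and its 2 other probe sets had the same sign. Both calls were lost without either unsorted array (without unsorted replicates a and b the adjusted p by limma was 0.468 and 0.123 for side population cells, 0.49 and 0.132 for non-side population cells). The first was also lost without side population replicate a, b or d and with arrays labelled AGS alone, and the second without non-side population replicate a or d. With the mean over probe sets both were lost (adjusted p = 0.122 and 0.165, limma). LYN, a kinase of the SRC family that phosphorylates the inhibitory motifs, was at 0.71 ± 0.22 between side and non-side population, and SHC1, an adaptor, at 0.45 ± 0.23 (limma, adjusted p = 0.997 for both). Of the 11, 10 were positive there, with a median of 0.13, beside 57.3% positive and a median of 0.045 among all genes tested. In the same comparison 10 of 14 transcription factors, 13 of 26 GPI genes, 15 of 25 surface molecules and 1 of 6 family genes were positive. These counts of signs were not tested. INSR, the insulin receptor, was at 0.92 ± 0.33 between side population and unsorted cells (adjusted p = 0.159, and 0.0462 with the replicate letter as a block, limma).

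Of the molecules on the epithelial surface and in junctions, 25 of 30 were tested. DSC2, a desmosomal cadherin, was called lower in non-side population than in unsorted cells, at -0.96 ± 0.24 (adjusted p = 0.0373, limma), and was at -0.60 ± 0.24 in side population cells (adjusted p = 0.199, limma). Of its 3 other probe sets, 231033_at had the opposite sign, and the call was lost without unsorted replicate a or b (adjusted p = 0.36 and 0.349, limma), without non-side population replicate a or d and without side population replicate d. It was also lost with the mean over probe sets (adjusted p = 0.224, limma) and with only the compared groups in the fit (adjusted p = 0.0781, limma). DSG2, another desmosomal cadherin, was at 0.52 ± 0.22 between side population and unsorted cells and at 0.35 ± 0.18 between the sorted populations (adjusted p = 0.232 and 0.997, limma). LY6E, a GPI-anchored surface protein, was at -0.64 ± 0.48 between side population and unsorted cells (adjusted p = 0.544, and 0.0362 with the replicate letter as a block, limma). INSR, IRF2 and LY6E are named because the block changed their call, after their values were seen.

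The machinery that CEACAM5, CEACAM6 and CEACAM7 depend on for their anchor, GPI synthesis and transfer, had 26 of 29 genes tested. Limma called 0 in each comparison. Of the 26, the number at an unadjusted p under 0.05 was 1 between the sorted populations. It was 2 between side population and unsorted cells and 1 between non-side population and unsorted cells. Over all genes tested the shares were 4.35%, 17.1% and 19.5% in the same order, and no count exceeded its share. Against unsorted cells PIGP was at 0.80 ± 0.31 in side population cells and 0.87 ± 0.31 in the non-side population (adjusted p = 0.194 and 0.143, limma), and PIGF at 0.59 ± 0.27 and 0.54 ± 0.27 (adjusted p = 0.276 and 0.296, limma). Between the sorted populations PIGN was at 0.62 ± 0.25 and PIGX at -0.47 ± 0.23 (adjusted p = 0.997 for both, limma).

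Transcription factors linked to CEACAM genes had 14 of 18 tested and 0 called by limma. Of the 14, 0, 4 and 6 had an unadjusted p under 0.05 in the same order, beside 4.35%, 17.1% and 19.5% of all genes tested. The 4 and 6, both against unsorted cells, are larger parts of the 14 than those shares. A shift of the list as a set was not tested. CDX2, an intestinal factor, averaged 153 in side population and 396 in unsorted cells, a difference of -1.39 ± 0.39 (adjusted p = 0.0724, limma). It was called with the replicate letter as a block (adjusted p = 0.0188, limma) and without non-side population replicate b (adjusted p = 0.0353, limma). IRF2, an interferon regulatory factor, was at -0.95 ± 0.42 there (adjusted p = 0.261, and 0.0327 with the block, limma), and without non-side population replicate c it was called between non-side population and unsorted cells (adjusted p = 0.0397, limma). In side population against unsorted cells KLF5 was at -0.68 ± 0.28 (adjusted p = 0.211, limma). IRF1, through which interferon acts on CEACAM1, was at 0.89 ± 0.28 between non-side population and unsorted cells and SP3 at -0.76 ± 0.27 (adjusted p = 0.096 and 0.134, limma). With the mean over probe sets IRF1 was called higher than in unsorted cells in side population (1.09 ± 0.22, adjusted p = 0.0341, limma) and in non-side population cells (1.24 ± 0.22, adjusted p = 0.0135, limma). Between the sorted populations SP3 was at 0.37 ± 0.22 and HIF1A at 0.28 ± 0.17 (adjusted p = 0.997 for both, limma). The median of the 14 was -0.51 between non-side population and unsorted cells and -0.22 between side population and unsorted cells, beside -0.01 and 0.042 for all genes tested. Between the sorted populations the median was 0.24, beside 0.045 for all genes tested.

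Other CEACAM genes and the pregnancy-specific glycoproteins (PSG), which sit in the same family, had low signal. Of 20 listed, 14 were measured and 6 tested, and limma called 0 in each comparison, with 0 at an unadjusted p under 0.05. Over their 24 probe sets, 7 were above the array median on all 10 arrays and 3 on none. CEACAM8, a granulocyte marker, read 2.3 to 37.9. PSG6 was at -0.51 ± 0.34 and PSG9 at -0.40 ± 0.36 between the sorted populations (adjusted p = 0.997 and 1, limma). Against unsorted cells PSG6 was at -0.68 ± 0.42 and PSG11 at -0.58 ± 0.54 in side population (adjusted p = 0.434 and 0.644, limma), and PSG11 at -0.42 ± 0.54 and PSG2 at -0.37 ± 0.75 in non-side population cells (adjusted p = 0.721 and 0.83, limma).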

How the data were processed

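Biotin-labelled total RNA of 10 samples was read on single-channel arrays. The authors deposited 1 intensity per probe set and array on a linear scale; GCOS 1.4 is named in the submitters' processing notes without its role, and how probes were summarised is not stated in any label or header used here. The mean after trimming 2% at each end was 500.065 to 500.095 on every array, so no further scaling was done. Before taking log2, 6.1 (the 10th percentile over all values) was added, which lessens differences of dim genes.

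Of 54675 probe sets, 41097 had 1 symbol in the platform annotation, 1801 several and 11777 none. Each of 19775 genes was represented by its probe set of highest mean, and the 9888 at or above the median (intensity 149) were tested with limma 3.58.1 (R 4.3.3): 3 groups, 10 arrays, 1 fit, moderated variance with a trend, Benjamini-Hochberg over all tested genes, calls at an adjusted p under 0.05. CEACAM1, CEACAM5 and CEACAM6 passed the filter. Member differences come from the same model over all probe sets with 1 symbol. The fit was tested on simulated data. Alternatives were constants of 1 and 32, raising values under the array median, quantile normalization, other filters, the mean over probe sets, no trend, AGS-labelled arrays only, a replicate block, only the compared groups, and each array left out; without 1 unsorted array, the other is assumed to vary like the remaining groups. Promoters were aligned globally with affine gaps.

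Members and lists were chosen with earlier results of these data known. Text names all member probe sets, the tested chromosomal neighbours and the 5 nearest profiles. Per list and comparison it names up to 4 called genes or else 2 of smallest p. INSR, IRF2, LY6E and LOC105372404 are named outside this rule. So are CEACAM8 and the marker genes, among them MET, CAPZA2 and PTPRC. The number of arrays limits the precision. No arrays held identical values.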

Additional observations from a re-analysis of the deposited data

Results flagged for a closer look

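Of 102 sets of 4 arrays examined for 1 array far from the other 3, 4 had one, and about 5% are expected to by chance. CEACAM7 206198_s_at read 34.4 in non-side population replicate d against 0.6 to 3 in the other 3, all below the array medians; of the 24 sets of the CEACAM probe sets it was the single one. CDX2 read 124.9 in non-side population replicate b against 250.1 to 264.9. RABAC1 read 6756.8 in non-side population replicate c against 8161.3 to 8389.8. LONP2 read 2006.4 in non-side population replicate d against 1566.9 to 1612.7.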

How the results depend on the processing

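The 12 differences of the 4 CEACAM genes were recomputed under 18 alternatives each. Of the 216 values, 210 moved by less than the spread between replicates. Some could not move: leaving out an array of a group not compared, or fitting only the compared groups, leaves a difference unchanged. The spread is also wide for CEACAM1, whose -1.01 between side and non-side population became -0.45 without side population replicate a and counted as within it. CEACAM5 stayed between 2.20 and 2.68 (side population against unsorted) and between 2.36 and 2.95 (non-side population against unsorted), except with the mean over probe sets, where it was 0.87 and 0.99 and CEACAM6 was -0.33 in non-side population cells; that mean takes in the second probe sets described above. With only arrays labelled AGS, CEACAM1 turned to 0.077 against non-side population and 0.42 against unsorted cells. With values under the array median raised to it, CEACAM7 was 0.034 in side population against unsorted cells. The cause was not tested in these cases. The labels give side and non-side population arrays the same letters without saying what a letter stands for, and pairing was not established: deviations of same-letter side and non-side population arrays correlated at 0.212, 0.498, -0.117 and 0.364, and side population replicates a and b, but not c and d, correlated best with their own letter. The letter block also joins unsorted arrays a and b to the sorted arrays of those letters, which no label ties together. With that replicate block, 5 related genes passed the test in side population against unsorted cells instead of 1: CTNNB1, CDX2, INSR, IRF2 and LY6E. There CEACAM5 was at 2.24, CEACAM1 moved from -0.66 to -1.30, and in non-side population against unsorted cells CEACAM1 turned from 0.35 to -0.28. Of the related genes, 0 passed between side population and unsorted cells with arrays labelled AGS alone, and 0 to 2 when each sorted array was left out. Between non-side population and unsorted cells 1 was called with the mean over probe sets (IRF1, in place of CTNNB1 and DSC2), 1 with only the compared groups, and 0 to 3 without each array. Side against non-side population gave 0 in all 21 alternatives. The 2 unsorted arrays limit what can be called.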
